A study of Mus musculus with 8 samples.

Results

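The cytosolic ribosomal protein genes encode the proteins of the ribosome that translates nuclear mRNA, and they were compared between pancreatic lymph nodes of Deaf1 knockout mice and of wild-type littermates. A gene was a member when its name on the array was Rpl or Rps followed by a number, with at most 1 letter and 1 further digit or "l", or was Rplp0, Rplp1, Rplp2 or Rpsa. The Rps6ka, Rps6kb and Rps6kc kinase genes were left out. The rule found 82 of the 27745 gene names on the array, on 136 probes, and 81 of these members passed the filter on dim probes, among 18478 genes tested. Rpl3l, a copy of Rpl3 used in striated muscle, was the member that did not pass.

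All mice were BALB/c. Each of 8 two-colour Agilent arrays carried RNA of a Deaf1 knockout pancreatic lymph node sample labelled with Cy5 and, in Cy3, RNA pooled from wild-type nodes of the same age. There were 2 arrays at 4 weeks of age, each against a pool of 2 mice, 3 at 12 weeks against pools of 3, and 3 at 30 weeks against pools of 3. Deaf1 is a transcription factor that is also expressed outside the immune system, and the labels do not name a tissue restriction of the knockout, the deleted exons or the sex of the mice. The Deaf1 probe itself read a log2 ratio of -0.17 at 4 weeks, 0.34 at 12 weeks and 0.10 at 30 weeks. Whether that probe lies inside the deleted part is not given in the sources used here, so these values check nothing about the genotype. Every value below is a log2 ratio of knockout over wild-type pool unless another scale is named. No array compared wild-type RNA with the pool and no dyes were swapped, so the tests cover the spread among knockout arrays only, and a gene's dye preference cannot be told apart from the genotype.

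The cytosolic ribosome joins a small subunit, built on 18S ribosomal RNA, to a large subunit that forms the peptide bond. Each subunit needs nearly all of its proteins in equal copy number, and vertebrate mRNAs for these proteins typically start with a terminal oligopyrimidine tract, a C at the cap followed by a run of C and T, through which mTOR signalling controls their translation. Lymphocytes raise ribosome production when they are activated, and Rpl22 is required for normal development of alpha beta T cells. Most ribosomal protein genes also have processed pseudogenes and near-identical copies elsewhere in the genome, so a 60-base probe can bind RNA of more than 1 copy, and the values of single members are uncertain to that extent.

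The oligopyrimidine start is shown first, since it is the feature these mRNAs are known for and was more frequent at annotated starts of members than of all genes. Of 82 members, 62 had a start in the RefSeq promoter table (build GRCm38.p6), with 74 starts in all. A C at the annotated start followed by at least 4 pyrimidines, read on the gene's strand only, was found at 13 of these 74 starts (17.6%) and at 823 of 32851 starts of all genes (2.51%). Allowing a C with 5 pyrimidines after it anywhere from 10 bases before to 20 bases after the start gave 37 of 74 (50%) against 7235 of 32851 (22%). The 4 windows below run from 15 bases before the start to 15 bases into the transcript, with the pyrimidine run at the start in capitals. They were picked to show members with ratios of opposite sign at 30 weeks.
Rps6 (chr4:86857353-86857382, minus strand): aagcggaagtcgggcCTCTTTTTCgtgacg
Rpl28 (chr7:4792950-4792979, plus strand): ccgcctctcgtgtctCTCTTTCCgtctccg
Rpl38 (chr11:114668565-114668594, plus strand): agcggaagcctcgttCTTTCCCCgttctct
Rps18 (chr17:33955651-33955680, minus strand): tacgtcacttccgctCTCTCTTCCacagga
At 30 weeks Rps6 and Rpl28 had ratios of -0.59 and -0.25, while Rpl38 and Rps18 had ratios of 0.52 and 0.49. Rpl28 did not pass the test (limma adjusted p = 0.101). Of the 13 members with the tract at the annotated start, 8 rose, 1 (Rps6) fell and 4 were not called at 30 weeks. Of all 81 tested members 48.1% rose and 13.6% fell, and of all genes 20.8% and 18.3%. Calls of other genes with the tract were not counted, so these calls are not shown to go with the tract. The absence of a match elsewhere says only that these letters were not in the window.

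The members were among the brightest genes on the array. Of the 81 tested, 76 lay in the brightest 5% of genes, and their median brightness percentile was 99.6. No spot was saturated. The scanner marked 37.2% to 62.6% of all probes as clearly detected on the Cy3 side of an array and 46.8% to 71.4% on the Cy5 side. Rps14, Rps4x and Rpl37a each lacked 1 or 2 arrays because their spots were flagged as outliers, and their values rest on the remaining arrays. For 79 of the 80 members with a RefSeq entry the probe lay on the gene's own chromosome. The brightest Rpl10 probe was placed on chromosome 13 while the gene lies on chromosome X.

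Among the members, replicate 1 at 12 weeks stood apart. Across 78 to 80 members its ratios correlated with the 3 arrays of 30 weeks at Pearson's r of 0.96, 0.94 and 0.89, and with the other 12-week arrays at 0.62 and 0.70. The other 12-week arrays correlated with each other at 0.85, and the 30-week arrays among themselves at 0.94 to 0.96. Across the genes that are not members, replicate 2 of 12 weeks stood apart instead. It correlated with replicates 1 and 3 at 0.16 and 0.071, while those correlated with each other at 0.58, and replicate 1 with the 30-week arrays at 0.51 to 0.61. Replicate 2 of 30 weeks correlated with the other 30-week arrays at 0.37 and 0.35 across these genes, and those with each other at 0.89. On replicate 2 of 12 weeks Xist, which is expressed from the inactive X of females, read 5.32, and the Y-linked Ddx3y and Eif2s3y read -3.89 and -4.86, against -0.40 to 0.91 for these genes on the other arrays. The knockout sample and the pool therefore differed in sex on that array. These are correlations across genes, which are not independent replicates, and arrays of an age may share a wild-type pool. All 12-week arrays and replicate 1 of 30 weeks sat on 1 slide, the other 30-week arrays on another, and both 4-week arrays on a slide and scanner of their own, so slide and age cannot be told apart for 4 weeks. Results at 12 weeks are given with and without each replicate.

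**Figure D1:**
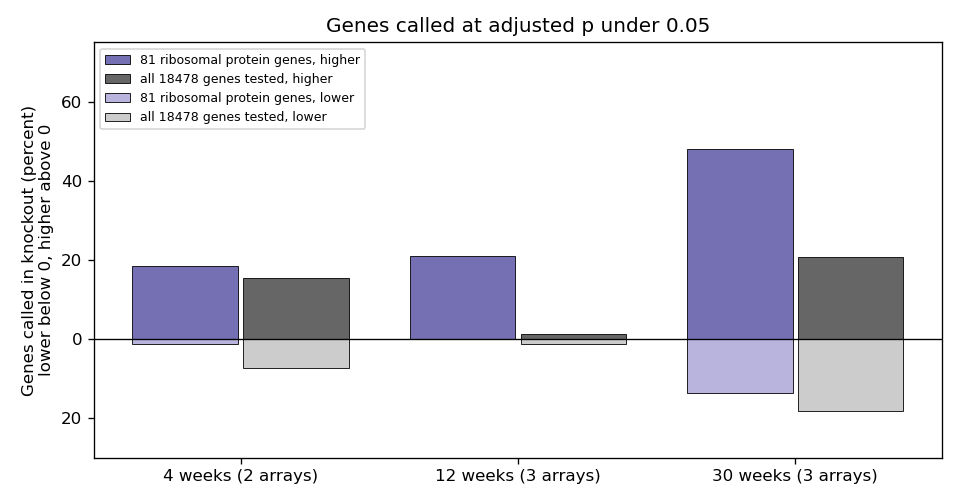
Percent of genes called at an adjusted p under 0.05 by limma (y axis, higher in knockout above 0 and lower below 0) at each age, for the 81 ribosomal protein genes (violet bars) and for all genes tested (grey bars). At 30 weeks 48.1% of the ribosomal protein genes were higher against 20.8% of all genes.

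At 30 weeks 50 of the 81 members were called, and they split by gene: 39 rose and 11 fell. Among the risers were Rps7 (log2 ratio 0.98), Rpl37a (0.97), Rpl22l1 (0.96), Rps27a (0.90), Rpl39 (0.87) and Rplp1 (0.86), all between 1.81-fold and 1.98-fold higher in knockout nodes. The fallers were led by Rpsa (-1.16) and Rpl4 (-1.11), which stood at 0.447 and 0.462 of the wild-type level, followed by Rpl8 (-0.77), Rps9 (-0.74), Rpl3 (-0.70) and Rps15 (-0.69). Of all genes tested, 20.8% were higher and 18.3% lower, so the members' 48.1% higher was above that background and their 13.6% lower was below it. The median member stood at 0.19 and the median of all genes at 0.03. Without replicate 2 of 30 weeks, 36 members were called higher and 8 lower. Calls over all genes, in either direction, ran from 3954 to 7993 at 30 weeks over the fits that left out 1 array.

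The test was limma's moderated test with Benjamini-Hochberg adjustment over all 18478 genes. Signs are relative to genes of similar brightness, because loess sets the average ratio to 0 along the brightness range where the members are dense. With arrays centred on their median and no loess, the median of all genes moved to 0.49, 0.41 and 0.16 at 4, 12 and 30 weeks, and 81, 80 and 73 of the 81 members lay above it, against 52, 67 and 55 with loess. Under that scaling 63 members were called higher and 2 lower at 30 weeks, counts that include the shift of all genes and have no share of all genes beside them.

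In the small subunit, 15 of 31 proteins' genes rose at 30 weeks and 5 fell. Rps7, a protein of the small subunit body, read 1.09, 0.94 and 0.93 on the 3 arrays (mean 0.98 ± 0.09 SD, n = 3; SE of the fit 0.09; limma adjusted p = 0.000769). Rps27a, which is made as a fusion with ubiquitin, read 1.01, 0.83 and 0.88 (adjusted p by limma = 0.000737). Rps23, a protein of the decoding centre, read 0.86, 0.79 and 0.89 (mean 0.85, limma adjusted p = 0.000658). The arrays of each of these genes were all above 0 and lay close together. The largest changes were named only where all arrays of the age had the same sign. Their shared sign is therefore no added support, here and below. Rps12 (0.80), Rps20 (0.73) and Rps29 (0.65), all in the head of the subunit, rose as well. Rps27 rose by 0.43 with a limma adjusted p of 0.0032.

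The fallers of the small subunit were Rpsa, Rps9, Rps15, Rps6 and Rps3a. Rpsa, which is also known as a laminin receptor precursor, read -1.22, -0.98 and -1.29 (mean -1.16 ± 0.16 SD, n = 3; SE 0.14; limma adjusted p = 0.00107). Rps9, a protein that binds 18S RNA early in assembly, read -0.74, -0.79 and -0.69. Rps15, which sits in the head of the subunit, read -0.72, -0.67 and -0.68. All arrays of these 3 genes were below 0, as the rule for naming the largest falls required. Rps6, the classical substrate of the S6 kinases, read -0.49, -0.61 and -0.67 (mean -0.59, limma adjusted p = 0.00153). Rps3a fell by 0.34.

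In the large subunit, 20 of 43 genes rose and 5 fell at 30 weeks. Rpl37a, a small zinc-binding protein, read 1.01, 0.90 and 0.99 (mean 0.97 ± 0.06 SD, n = 3; SE 0.10; limma adjusted p = 0.00108). Rpl39, a very small protein of the exit tunnel, read 0.96, 0.79 and 0.86. Rpl34 (0.81) and Rpl30 (0.69) rose too. Rpl11, which with Rpl5 and 5S RNA forms the particle that binds Mdm2, read 0.50, 0.43 and 0.40 (limma adjusted p = 0.00219). Its partner Rpl5 read -0.12, -0.20 and -0.40 and did not pass the test (limma adjusted p = 0.20). Rpl22 read 0.47, 0.35 and 0.38 and rose (mean 0.40, limma adjusted p = 0.0088).

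The large subunit fallers were Rpl4, Rpl8, Rpl3, Rpl13a and Rpl18. Rpl4, whose extension lines the exit tunnel, read -1.04, -1.17 and -1.13 (mean -1.11 ± 0.07 SD, n = 3; SE 0.14; limma adjusted p = 0.00121). Rpl8 and Rpl3, which reach toward the peptidyl transferase centre, read -0.80, -0.75 and -0.77, and -0.60, -0.76 and -0.74. The arrays of each of these genes were all below 0, as that rule required. Rpl13a, known for its part in the GAIT complex of interferon-treated myeloid cells, fell by 0.35. Rpl18 fell by 0.26 and was the smallest called fall.

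The stalk of the large subunit, which recruits elongation factors, is built from Rplp0 and dimers of Rplp1 and Rplp2, and its members went apart at 30 weeks. Rplp0, often used as a reference gene, read -0.72, -0.56 and -0.66 (mean -0.65 ± 0.08 SD, n = 3; limma adjusted p = 0.00138). Rplp1 read 0.80, 0.94 and 0.84 (mean 0.86, limma adjusted p = 0.00277). Rplp2 read 0.48, 0.32 and 0.44 (mean 0.41, limma adjusted p = 0.00172). All 3 Rplp0 values were below 0 and all 6 values of its partners were above it.

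Among the 4 variant copies measured, 2 rose at 30 weeks. Rpl22l1, the copy of Rpl22 whose own mRNA Rpl22 is known to repress, read 1.14, 0.98 and 0.76 (mean 0.96 ± 0.19 SD, n = 3; SE 0.11; limma adjusted p = 0.00101). Rps27l, a p53-responsive copy of Rps27, read 0.50, 1.02 and 0.56 (mean 0.69, limma adjusted p = 0.0028), with replicate 2 well above the others. Rpl36al, the autosomal copy of the X-linked Rpl36a, and Rpl7l1 did not pass the test, with means of -0.12 and -0.06. Rpl36a itself rose by 0.56.

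**Figure D2:**
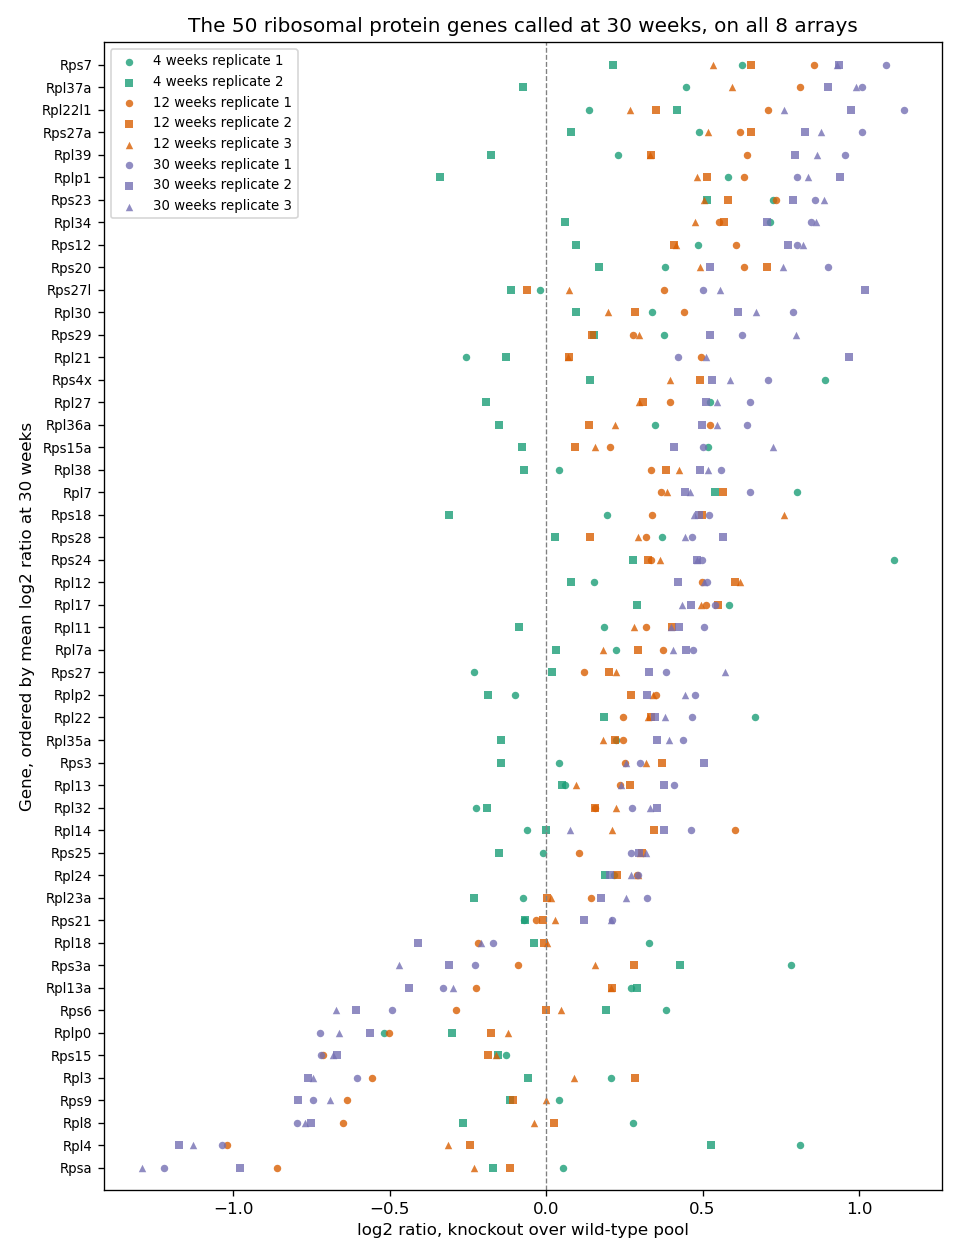
Log2 ratio of knockout over wild-type pool (x axis) on each of the 8 arrays for the 50 ribosomal protein genes called at 30 weeks (y axis, ordered by their 30-week mean); colour gives the age and shape the replicate. For each of the 11 lower genes replicate 1 is the 12-week array nearest to the 30-week mean.

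The 11 fallers of 30 weeks divided the 12-week arrays, whose ratios are not part of the 30-week means but enter the shared estimate of spread behind the calls. On replicate 1 of 12 weeks all 11 were below 0, with a median of -0.56 and a range from -1.02 to -0.09. On replicates 2 and 3, 6 and 5 of them were below 0, with medians of -0.01 and 0.00. Rpl4 read -1.02, -0.24 and -0.31 at 12 weeks, and Rpsa read -0.86, -0.11 and -0.23. The 39 risers did not divide these arrays, with medians of 0.37, 0.33 and 0.30. The channels showed where the split lay: the median log2 Cy5 intensity of the 11 fallers was 14.11 on replicate 1 against 14.73 and 14.62 on replicates 2 and 3, and their Cy3 medians were 14.49, 14.57 and 14.53. At 30 weeks the Cy5 medians were 14.13, 13.98 and 14 and the Cy3 medians 14.73, 14.59 and 14.67. The difference between the 12-week arrays was thus in the knockout channel. At 4 weeks the fallers had ratio medians of 0.27 and -0.06, with 9 and 4 of 11 above 0.

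**Figure D3:**
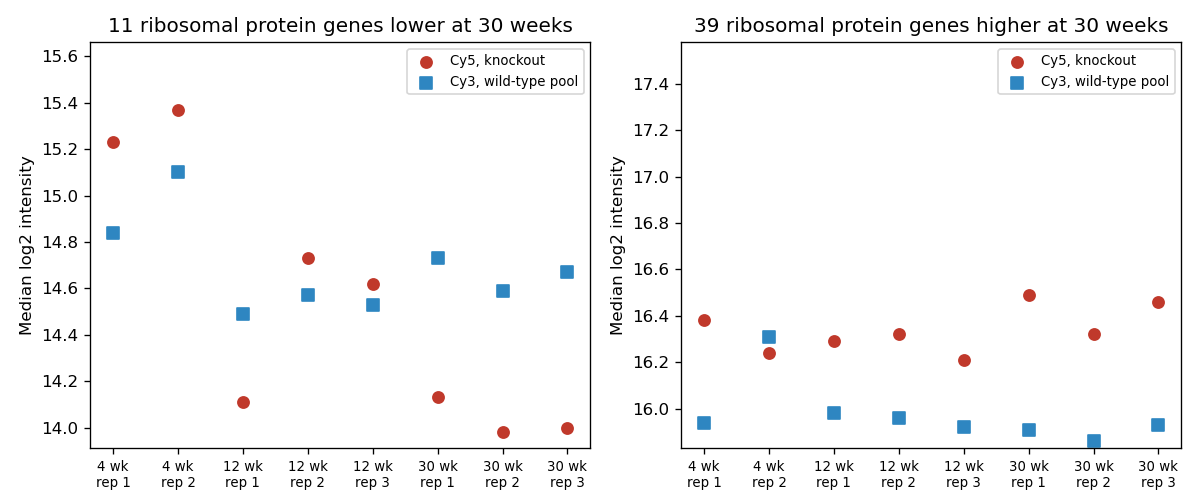
Median log2 intensity (y axis) on each array (x axis) of the 11 ribosomal protein genes lower (left) and the 39 higher (right) at 30 weeks, for the knockout channel (red circles) and the wild-type pool (blue squares), after loess and scaling of the average intensities across arrays. For the 11 genes the knockout channel lies between 13.98 and 14.13 on the 30-week arrays and on replicate 1 of 12 weeks.

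The T cell markers (7 measured) had a median ratio of -0.47 on replicate 1 of 12 weeks and of 0.11 and 0.06 on the other 12-week arrays, and stood at -0.40, -0.31 and -0.15 at 30 weeks, where 3 of 7 fell. Replicate 1 thus lay apart from the other 12-week arrays in these markers as in the fallers. The B cell markers (5 measured) had medians of -0.51, 0.30 and -0.28 at 12 weeks and of -0.31, -0.45 and -0.45 at 30 weeks, where 3 fell and 1 rose, so that replicate 3 lay with replicate 1 in these. Macrophage and plasma cell markers (4 measured each) had medians of -0.46, -0.29 and -0.29, and of -0.16, -0.26 and -0.14, at 30 weeks. In each list 2 fell and 0 rose. Of 6 dividing cell markers 2 rose and 1 fell, and of 3 endothelial markers 1 rose and 1 fell. Of 3 islet markers 1 rose, and of 4 reticular cell markers 0 were called. Over all genes 18.3% were lower and 20.8% higher at 30 weeks. In whole nodes, fewer cells of a type and less RNA per cell cannot be told apart. The 5 measured of 10 acinar markers swung from -4.41 and -4.50 on replicates 1 and 3 of 30 weeks to 4.03 on replicate 2, while the member medians of those arrays were 0.21, 0.14 and 0.20. Fat cell markers (4 measured) stood at -1.52, -1.63 and -0.03 on the 12-week arrays, where the member medians were 0.14, 0.28 and 0.24. The part of these markers in the members' values was not tested.

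The letters of a polyadenylation signal in a member's probe went with rises at 30 weeks, although most risers lacked them. The letters AATAAA, the commonest polyadenylation signal and so a sign of the 3′ end, were searched in the sense strand of each member's 60-base probe after the values had been seen. They were present in 11 of 81 members (13.6%) and in 923 of all 18478 genes (5%). Of the 11 members, 10 rose and none fell at 30 weeks, with a median of 0.44, and the exception was Rps13 at 0.16. Of the other 70, 29 rose and 11 fell, with a median of 0.13. Over all genes, 318 of 923 with the letters rose and 82 fell, with a median of 0.15 against 0.02 without them. At 4 weeks none of the 11 members was called and their median was 0.05. The probes of 3 risers and 3 fallers are shown by 30 of their bases, with AATAAA in capitals in the risers and the start codon in capitals in Rpsa (mm8 positions of the whole probe).
Rpl37a (chr1:72646770-72646829, plus strand): tgcctagcctgcAATAAAcgggttatttac
Rplp1 (chr9:61711300-61711359, minus strand): actgcttttgttaagttggctAATAAAgag
Rps27a (chr11:29445848-29445907, minus strand): tgtgtatgcgttAATAAAaagaaggaactc
Rpsa (chr9:119977169-119977228, plus strand): acaATGtccggagcccttgacgtcctgcag
Rpl4 (chr9:63972936-63972995, plus strand): acaacagacagccctatgccgtcagtgaat
Rplp0 (chr5:115821920-115821979, plus strand): gtgttcaccaaggaggacctcactgagatt
The Rpsa probe, with the largest fall, thus covers the first codons, at the far end from the polyadenylation site. The risers shown were picked for the letters, and the probe of Rps7, the largest riser, lacked them. Where the Rpl4 and Rplp0 probes lie in their transcripts was not determined. A match to AATAAA is a description of the letters and not proof of a used signal.

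Probes of the same gene gave different ratios. For 34 members with 2 probes between 60 and 20000 bases apart, the ratio at the 3′ probe minus that at the 5′ probe had medians of 0.26, 0.20 and 0.21 on the 30-week arrays, and of 0.20, 0.02 and 0.08 on the 12-week arrays, where replicate 1 again resembled 30 weeks. At 4 weeks the medians were 0.02 and 0.01. Over about 4600 genes with such a pair the medians were 0.12 on each 30-week array, 0.14, 0.03 and 0.03 at 12 weeks and 0.09 and 0.07 at 4 weeks. As a direction the members were near all genes. The 3′ probe was higher in 64.7%, 58.8% and 70.6% of member pairs on the 30-week arrays, against 61.8%, 62.6% and 62.7% of all pairs. At 30 weeks Rps3 averaged -0.69 at its 5′ probe and 0.35 at its 3′ probe, Rps2 -0.58 and 0.08, Rps19 -0.50 and 0.19, and Rpsa -1.16 and -0.38. The 3′ probe of Rpsa was dim, at a mean log2 brightness of 7.88 against 14.07 for its 5′ probe. At 4 weeks Rpsa had the reverse order, with -0.06 and -0.59. Rpl22l1 at 30 weeks read -0.20 at a very dim 5′ probe and 0.96 at the bright 3′ probe used here. The opposite order was seen in Rpl21 (0.63 and -0.23) and Rps15a (0.55 and -0.11). Their 3′ probes were as dim as that 5′ probe of Rpl22l1 (mean log2 brightness 6.66 and 6.39 against 6.41). It was also seen in Rpl22 (0.40 and -0.21), whose 3′ probe was brighter at 11.58. The faller Rps3a was read at its 3′ probe, at -0.34 against -0.21 at its 5′ probe. The sign of a member with probes that disagree therefore holds for the probe used and not for the gene. The part of probe position in the calls was not tested.

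**Figure D4:**
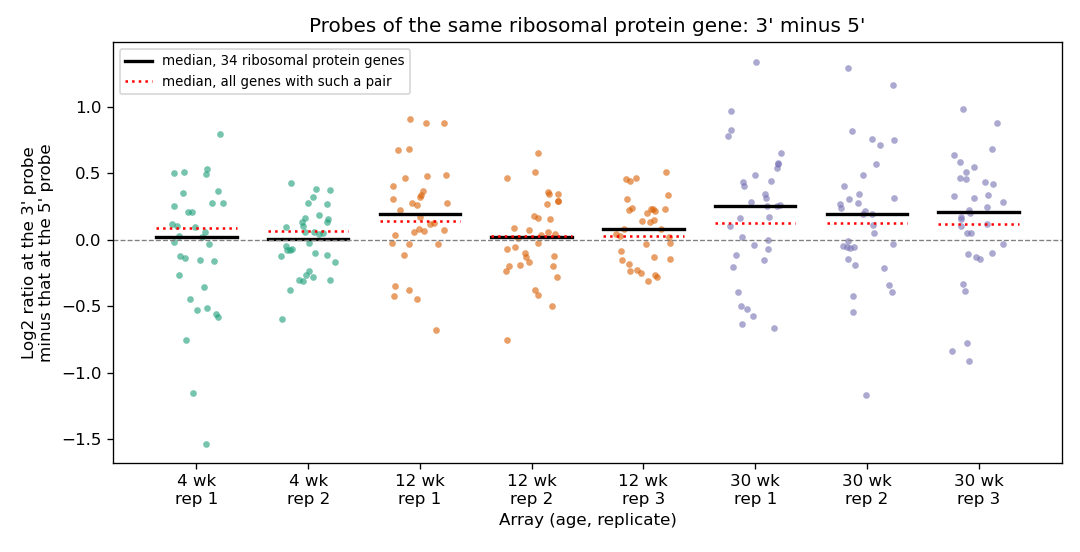
Difference in log2 ratio between the 3′ and the 5′ probe of the same gene (y axis) on each array (x axis), for 34 ribosomal protein genes (points, black bar at the median); the red dotted line is the median over all genes with such a pair. The black bars are highest on the 30-week arrays and on replicate 1 of 12 weeks.

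Probe composition moved with the ratios too. Spearman's rho between the GC content of the probe and the ratio was -0.39 across the 81 members at 30 weeks and -0.34 across all genes. At 12 weeks it was -0.29 and -0.34, and at 4 weeks -0.08 and -0.37. Between brightness and ratio it was 0.42, 0.56 and 0.08 across the members at 30, 12 and 4 weeks. After the GC trend was removed from each array, 44 members were called higher and 10 lower at 30 weeks. The share of all genes called in that fit is not reported here, so these counts have no background beside them. The 18S ribosomal RNA probe (Rn18s), an RNA with no poly(A) tail, read 1.24, 2.35 and 1.23 at 30 weeks, 0.96, 1.21 and 1.32 at 12 weeks and 0.10 and -0.12 at 4 weeks. The part of what this probe measured in the members' values was not tested.

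At 12 weeks 17 of 81 members (21%) were higher by limma, against 1.22% of all genes, and none was lower, against 1.37% of all genes. At an unadjusted p under 0.05, for which all genes were not counted, 49 members were higher and 4 lower. Rpl37a (0.70), Rps7 (0.68), Rps20 (0.61), Rps23 (0.61), Rps27a (0.60) and Rpl12 (0.57) rose most. By role, 6 of 31 small subunit genes, 10 of 43 large subunit genes, 1 of 3 stalk genes and none of the 4 variant copies rose. The median member stood at 0.22 against 0.02 for all genes. The calls depended on the set of arrays fitted. With replicate 1, 2 or 3 of 12 weeks left out in turn, 1, 14 and 4 members were called higher. In the fit without replicate 2, 1 member was lower. The member left without replicate 1 was Rpl12, at 0.61. Replicates 1, 2 and 3 of 30 weeks are not part of the 12-week means but enter the shared estimate of spread. With each of these left out in turn, 2, 7 and 2 members were called higher at 12 weeks. Calls over all genes moved too. In the main fit 225 of all genes were higher and 253 lower. In all, 18 genes were called without replicate 1 of 12 weeks and 1862 without replicate 2. The members' median stayed between 0.20 and 0.26 over the fits that left out 1 array.

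Rpl12, which anchors the base of the stalk, read 0.50, 0.60 and 0.62 at 12 weeks (mean 0.57 ± 0.07 SD, n = 3; SE 0.06; limma adjusted p = 0.00877). Rps23 read 0.74, 0.58 and 0.50 (SE 0.07; limma adjusted p = 0.0141). Rps7 read 0.85, 0.66 and 0.53, and Rps20 read 0.63, 0.70 and 0.49. All arrays of these genes were above 0, as the rule for naming the largest rises required. Rps27a read 0.62, 0.65 and 0.52, and Rpl37a 0.81 and 0.60 on the 2 arrays that measured it. Rplp2 rose by 0.32 (0.35, 0.27 and 0.34; limma adjusted p = 0.0395) and Rpl11 by 0.33 (0.32, 0.40 and 0.28; adjusted p by limma = 0.0474).

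Other members of note at 12 weeks did not pass the test. Rplp1 read 0.63, 0.52 and 0.48 (limma adjusted p = 0.074) and Rpl39 read 0.64, 0.33 and 0.33 (adjusted p by limma = 0.052). Rpl5 read 0.00, 0.77 and 0.58, and Rplp0 read -0.50, -0.17 and -0.12. Rps6 read -0.29, 0.00 and 0.05, Rpl3 -0.56, 0.28 and 0.09, and Rpl22l1 0.71, 0.35 and 0.27. In each of the last 5 genes replicate 1 lay apart from replicates 2 and 3. Rps27l (0.38, -0.06 and 0.07) and Rps27 (0.12, 0.20 and 0.22) were not called, nor was Rpl22 (0.25, 0.34 and 0.33).

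At 4 weeks 15 of 81 members (18.5%) were higher, against 15.3% of all genes, a share near the background. Rplp0 was the single member that was lower (1.23% of members), against 7.35% of all genes. Rpl5 (0.86), Rps24 (0.69), Rpl7 (0.67), Rpl4 (0.67), Rps23 (0.62) and Rps3a (0.61) rose most. By role, 5 of 31 small subunit genes, 9 of 43 large subunit genes and 1 of 4 variant copies (Rpl36al) rose. The 2 arrays differed as groups: 62 of 81 members were above 0 on replicate 1, with a median of 0.22, and 36 of 81 on replicate 2, with a median of -0.06. Without replicate 1, which leaves 1 array at that age, no member call held, and calls over all genes also became fewer. The members' median was then -0.06, and 0.22 without replicate 2.

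Rpl5 read 1.00 and 0.71 at 4 weeks (SD 0.21, n = 2; SE 0.17; limma adjusted p = 0.00909). Rps24, in which mutations cause Diamond-Blackfan anaemia, read 1.11 and 0.28. Rpl7, which lies beside the 5S RNA, read 0.80 and 0.54 (limma adjusted p = 0.00256). Rpl4 read 0.81 and 0.53 and Rps3a 0.78 and 0.43, so that these 2 genes were higher at 4 weeks and lower at 30 weeks. Rplp0 read -0.52 and -0.30 (mean -0.41, limma adjusted p = 0.0275). Under median centring without loess it turned to 0.51, where the median of all genes was 0.49. Rpl22 read 0.67 and 0.19 and rose by 0.43 (limma adjusted p = 0.0247). Rplp1 read 0.58 and -0.34, Rplp2 -0.10 and -0.19, Rpsa 0.05 and -0.17, Rps6 0.38 and 0.19, and Rpl11 0.18 and -0.09, and none of these was called. Rpl22l1 (0.14 and 0.42), Rps27l (-0.02 and -0.11), Rpl3 (0.21 and -0.06), Rps27 (-0.23 and 0.02) and Rpl39 (0.23 and -0.18) were not called either.

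**Figure D5:**
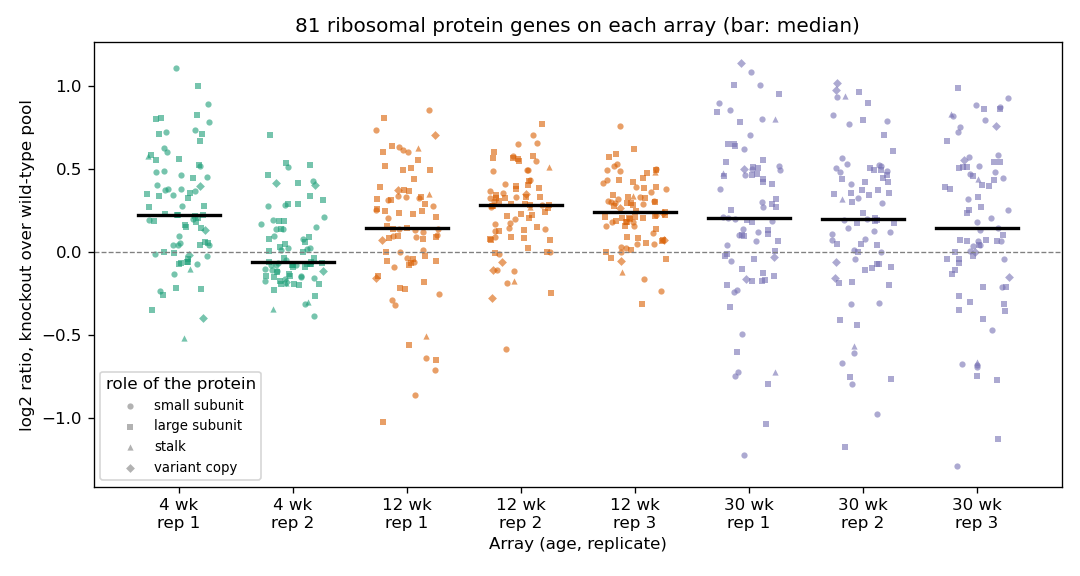
Log2 ratio of knockout over wild-type pool (y axis) of the 81 ribosomal protein genes on each array (x axis); marker shape gives the role and the black bar the median. The medians lie between -0.06 and 0.28, and the spread is widest on the 30-week arrays and reaches below -1 on replicate 1 of 12 weeks.

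A few members moved the same way throughout. Rpl17, Rpl7, Rps23 and Rps7 were higher at all 3 ages. Rps23 was between 0.50 and 0.89 on every array. Of the 78 members measured on all 8 arrays, 23 were above 0 on each, among them Rpl12, Rpl34, Rps12, Rps20 and Rps27a. Rplp0 and Rps15 were below 0 on each. Of the 17 members higher at 12 weeks, 15 (88.2%) were also higher at 30 weeks, which is 38.5% of the 39 there. Of the 15 higher at 4 weeks, 5 (33.3%) were higher at 12 weeks and 6 (40%) at 30 weeks. These overlaps and shared signs were not counted over all genes, so they are not shown to be particular to the members. The ages used different wild-type pools as far as the labels tell.

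The ages were also compared with each other, as a difference between their log2 ratios. From 4 to 12 weeks 4 members (Rplp2, Rpl12, Rpl38 and Rpl32) rose, against 1.36% of all genes, and 2 (Rpl4 and Rpl36al) fell, against 5.59% of all genes. Rplp2 went from -0.10 and -0.19 to 0.35, 0.27 and 0.34, a difference of 0.46 (SE 0.09; limma adjusted p = 0.028). Rpl12 differed by 0.46, Rpl38 by 0.39 and Rpl32 by 0.38, and the arrays of the 2 ages did not overlap in any of them. The rule for naming genes required this, and it was not counted over all genes. Members that were not called, such as Rpl10a and Rpl15, did not overlap either. Rpl38 is known for its part in translating Hox mRNAs. Rpl4 went from 0.81 and 0.53 to -1.02, -0.24 and -0.31, a difference of -1.19 (SE 0.22; limma adjusted p = 0.021) that stood at -0.95, still past the threshold, without replicate 1 of 12 weeks. Rpl36al went from 0.40 and 0.40 to -0.16, -0.11 and -0.05, a difference of -0.51 (limma adjusted p = 0.0175). Leaving out either 4-week array, which leaves 1 array at that age, ended the calls of all 6 genes, as did a block for the replicate number. The sizes of the differences remained similar in these 3 fits, from 0.42 to 0.51 for Rplp2, 0.42 to 0.49 for Rpl12, 0.34 to 0.45 for Rpl38, 0.37 to 0.40 for Rpl32, -1.34 to -1.05 for Rpl4 and -0.51 to -0.50 for Rpl36al. Slide cannot be told apart from age in this comparison.

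From 12 to 30 weeks no member was called by limma in either direction, against 0.33% of all genes higher and 0.46% lower. At an unadjusted p under 0.05, for which all genes were not counted, 12 members were higher and 15 lower. Among them were Rps6, with a difference of -0.51 (limma adjusted p = 0.0804), and Rpsa, with -0.76 (adjusted p by limma = 0.0935). The members' differences had a median of -0.04 and ran from -0.76 for Rpsa to 0.56 for Rps27l. Without replicate 1 of 12 weeks, 4 members were called higher and 17 lower at 30 than at 12 weeks. Calls over all genes also became many more in that fit, at 2773 in all, against 61 higher and 85 lower in the main fit.

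The genes that work with the ribosomal proteins did not all follow them. These lists were chosen with earlier results of the same arrays known. Of 16 measured translation partners, 7 rose at 4 weeks, 3 at 12 weeks, and 6 rose and 6 fell at 30 weeks, with medians of 0.16, 0.14 and 0.02. These were 43.8%, 18.8% and 37.5% higher and, at 30 weeks, 37.5% lower, against 15.3%, 1.22% and 20.8% higher and 18.3% lower among all genes. Gnb2l1, the scaffold protein Rack1 on the small subunit, read 0.85, 0.70 and 0.84 at 30 weeks and rose by 0.80 (SE 0.07; limma adjusted p = 0.000726). Fau, which encodes the ribosomal protein S30 under a name outside the rule, rose by 0.39 at 30 weeks. Eef1a1, which delivers aminoacyl tRNA, rose at all 3 ages by 0.55, 0.49 and 0.34. Eef2, the translocase, read -1.07, -1.10 and -1.08 at 30 weeks and -0.96, -0.03 and -0.12 at 12 weeks, the same arrays that set the 11 fallers apart. Pabpc1, the poly(A) binding protein, rose by 0.98 at 30 weeks, while Eif4b fell by 0.60 and Eef1b2 by 0.72. The initiation scaffold Eif4g3 was lower at all 3 ages, at -0.97, -1.35 and -1.49.

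Ribosome biogenesis and mitochondrial ribosomal genes were called in both directions. Among all genes 15.3% were higher and 7.35% lower at 4 weeks, 1.22% and 1.37% at 12 weeks, and 20.8% and 18.3% at 30 weeks. Of 44 biogenesis genes, 13 rose and 8 fell at 4 weeks, 1 rose at 12 weeks, and 9 rose and 12 fell at 30 weeks, with medians of -0.06, 0.03 and -0.12. At 30 weeks this was 20.5% higher, near the share of all genes, and 27.3% lower, and at 4 weeks 29.5% higher and 18.2% lower. Ncl, the nucleolar protein nucleolin, read -1.12, -1.23 and -1.42 at 30 weeks (limma adjusted p = 0.00113) and 0.98 and 0.76 at 4 weeks. Wdr12, needed for large subunit rRNA processing, fell by 0.77 at 30 weeks and Pno1, a small subunit assembly factor, rose by 0.48. Npm1, counted with the translation partners here, rose by 1.47 at 4 weeks. Of 75 mitochondrial ribosomal protein genes, 7 rose and 17 fell at 4 weeks, 1 rose at 12 weeks, and 27 rose and 17 fell at 30 weeks, with medians of -0.18, 0.01 and 0.05. At 30 weeks this was 36% higher and 22.7% lower, and at 4 weeks 9.33% higher and 22.7% lower. Mrpl50 (0.85) and Mrpl3 (0.60) rose at 30 weeks and Mrpl2 (-0.79) and Mrpl46 (-0.75) fell. Of 15 measured regulators of ribosomal protein synthesis, 4 rose and 1 fell at 4 weeks, none was called at 12 weeks by limma, and 4 rose and 1 fell at 30 weeks, which was 26.7% higher and 6.67% lower at both 4 and 30 weeks. Among these, Sp1 rose by 0.64 at 30 weeks and Eif4ebp2, a translation repressor controlled by mTOR, rose by 0.60, while the S6 kinase gene Rps6kb1 was at -0.06. None of these lists was tested as a set.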

How the data were processed

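Total RNA was amplified, labelled and hybridised to two-colour Agilent arrays. Per the file headers, the authors scanned them with Agilent Feature Extraction 9.5.3.1 (4 weeks) or 10.2.1.3 (12 and 30 weeks), and the deposited files hold mean and background intensities per spot and a log10 ratio of Cy5 over Cy3. The authors also deposited a series matrix of log2 ratios. It correlated at 0.99 or more with the log2 ratio of the scanner's processed signals and was not centred, and the software behind it is not given in the sources used here. Gene names, probe positions (mm8) and sequences came from the 4-week files, whose probe order the other files share.

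Starting from the mean intensities, the background was corrected by normexp (offset 50) and each array was normalised by loess (span 0.3, control spots at weight 0) in limma 3.58.1 under R 4.3.3. Spots flagged as outliers were left out and spots of a probe were averaged. Probes had to be marked well above background throughout an age, in Cy3 or in Cy5, for at least 1 of the 3 ages. Of 41174 probes 27464 did so, and the brightest of them stood for its gene. A model with 1 mean per age was fitted across 18478 genes with limma (5 residual degrees of freedom), and p-values were adjusted by Benjamini-Hochberg over all of them with a threshold of 0.05. With 2 or 3 arrays an age, the number of arrays sets the precision. The fit was checked on simulated data.

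The members and the compared lists were chosen with earlier results of these data known. In each comparison the named members were the 6 largest called rises and falls with the same sign on every array (no overlap for differences between ages), with the stalk proteins, Rpsa, Rps6, Rpl5, Rpl11, Rpl3, Rpl22, Rps27, Rpl39 and the variant copies always given where measured, and up to 3 called genes per direction from each compared list. Other members named were picked after their values were seen, as were the search for AATAAA and the probe pairs. Alternatives tried were other normalisations, background corrections, filters, probe choices, spread estimates, blocks for slide and replicate number, the deposited matrix, and leaving out each array. Some results for single genes are not reported here.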

Additional observations from a re-analysis of the deposited data

Results flagged for a closer look

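The knockout effect of 6 ribosomal protein genes differed between 12 and 4 weeks by limma's test of the difference, adjusted over all genes. Their arrays of the 2 ages did not overlap, which the rule for naming genes required and which was not counted over all genes. Rplp2 was higher at 12 weeks by 0.46, Rpl12 by 0.46, Rpl38 by 0.39 and Rpl32 by 0.38 on the log2 scale. Rpl4 was lower by a difference of -1.19 and Rpl36al by -0.51. None of the 6 passed the threshold when either 4-week array was left out, which leaves 1 array at that age, while the differences kept their direction and lay between 0.34 and 0.51 for the 4 higher genes, -1.34 and -1.05 for Rpl4 and -0.51 and -0.50 for Rpl36al.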

How the results depend on the processing

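Counts of members called are given as higher and lower. The shares of all genes called under other normalisations and blocks are not reported here, so those counts have no background beside them. With arrays centred on their median without loess, the median of all genes was itself 0.49, 0.41 and 0.16 at 4, 12 and 30 weeks. At 30 weeks they were 39 and 11, and stayed within 1.5 times of that except with arrays centred on their median without loess (63 and 2) and with slide as a fixed block (1 and 0), which takes the 30-week estimate from 1 array. Leaving out single arrays gave 32 to 39 and 8 to 13, with 3954 to 7993 genes called over all genes.

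At 12 weeks (17 and 0) median centring gave 80 higher, the deposited matrix 2, the mean of all probes 11, slide as a fixed block 2 and the replicate block 9. Leaving out single arrays gave 1 to 16 higher and 0 to 1 lower, with 18 to 1862 genes called over all genes. At 4 weeks (15 and 1) median centring gave 81 and 0, the deposited matrix 2 lower, the mean of all probes 3 lower and the removal of the GC trend 0 lower. Leaving out single arrays gave 0 to 22 higher and 0 to 2 lower.

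For 12 minus 4 weeks (4 and 2) median centring and the replicate block each gave 0 and 0. The deposited matrix and slide as a fixed block gave 0 higher, and the intensity trend with a robust prior gave 2 higher. Leaving out single arrays gave 0 to 8 higher and 0 to 2 lower. For 30 minus 12 weeks (0 and 0) leaving out single arrays gave 0 to 4 higher and 0 to 17 lower, both highest without replicate 1 of 12 weeks. The count over all genes was also highest there, at 2773. Slide as a random block had an estimated correlation of -0.259, and gave 28 and 4 at 4 weeks and 56 and 8 at 12 weeks. It gave 20 and 6 for 12 minus 4 weeks, and 4 and 9 for 30 minus 12 weeks. A negative correlation lowers the standard error of a mean whose arrays share a slide, as at 4 and 12 weeks. The larger counts are therefore no added support.

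Median centring turned the sign of 10 named values. At 4 weeks Rplp0 became 0.51, Rplp2 0.79, Rpsa 0.86, Rps27l 0.85 and Rps27 0.83. Relative to the median of all genes, Rplp0 stood at 0.02 there. At 12 weeks Rplp0 became 0.59, Rpsa 0.49, Rps6 0.82 and Rpl3 0.85, and at 30 weeks Rpl5 became 0.48. In no other setting did any of the 88 named values change sign while called on either side, although uncalled values near 0 could change sign. Fitting loess without the ribosomal protein probes left all 88 on their side of the threshold. The cause of these changes was not tested.

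Same-numbered arrays of different ages had deviations that correlated between -0.0778 and 0.24, so the numbers were not taken as pairs. The replicate block also gave 10 and 1 at 4 weeks and 38 and 9 at 30 weeks.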
